A study of Mus musculus with 12 samples.

Results

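The interferon regulatory factors (IRFs) are a family of transcription factors that share a DNA-binding domain with a conserved repeat of tryptophans. The 8 members described here were chosen by name from the mouse family, namely Irf1, Irf2, Irf3, Irf4, Irf5, Irf7, Irf8 and Irf9. They are 8 of the 20778 genes in the deposited table, and all 8 were among the 12122 genes that passed the filter on low counts and were tested. The study compared the expression profile of T cells activated with interferon gamma (IFNγ) with those after an antibody to the T cell receptor complex (αCD3) or after bacterial lipopolysaccharide (LPS). RNA was sequenced in 12 mRNA libraries, 3 in each of 4 groups. All groups were labelled as splenic CD8 T cells of C57BL/6 mice with no genetic change named, isolated with magnetic beads that bind CD8, and all were harvested after 6 hours of culture. The Naïve group received no stimulus. The other groups received αCD3 at 1 µg/ml, IFNγ at 70 ng/ml or LPS at 1 µg/ml, and the labels also give the αCD3 and LPS doses in mg/ml in a second field, so that their unit is uncertain. The labels put the mice at 6 weeks of age, but the study's methods name older animals throughout, so the age is not certain. Nothing states that the 3 libraries of a group came from separate mice or cultures, so p-values measure the spread between these libraries only. Total counts ran from 10.2 to 27.6 M per library, the deepest being αCD3 1.

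IRFs bind DNA repeats built around GAAA, as found in the interferon-stimulated response element (ISRE). IRF1 is an activator whose gene is switched on by IFNγ at gamma-activated sites (GAS), and IRF2 competes with it for the same elements. IRF3, IRF5 and IRF7 are present as latent proteins that are phosphorylated downstream of Toll-like receptors and cytosolic nucleic acid sensors, and IRF3 and IRF7 switch on type I interferon genes. IRF9 gives DNA-binding specificity to the complex, with STAT2, that carries the type I interferon signal to DNA. IRF4 and IRF8 bind with partners such as PU.1 or BATF-JUN, and IRF4 is a well known product of T cell receptor signalling that is needed for the expansion of effector CD8 T cells.

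The cell type named by the labels was first compared with cell type markers. Cd8a, which encodes a chain of the CD8 co-receptor, was present at 188 to 504 CPM (read counts scaled to a common library size by the TMM method), and none of the 9 T cell markers in the table was at 0 in any library. Of the 10 genes planned for each of the T cell and B cell lists, 9 were found by symbol. Summed CPM, which are not scaled for gene length and do not give numbers of cells, were mostly higher for the B cell markers. The summed level of 9 B cell markers was 3295 to 3598 CPM in Naïve, 2311 to 2679 in αCD3, 2630 to 2732 in IFNγ and 1919 to 2923 in LPS. The summed level of the 9 T cell markers was 1518 to 1714 CPM in Naïve, 2170 to 2326 in αCD3, 1491 to 1650 in IFNγ and 1178 to 1361 in LPS, below the B cell sum in 11 of 12 libraries. Cd79a, a chain of the B cell receptor complex, averaged 903 CPM in Naïve against 128 CPM for Cd3e of the T cell receptor complex. The libraries therefore held RNA of cells other than CD8 T cells, and the levels below are those of the whole mixture. In such bulk RNA, fewer cells of a type and less RNA per cell cannot be told apart.

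**Figure D1:**
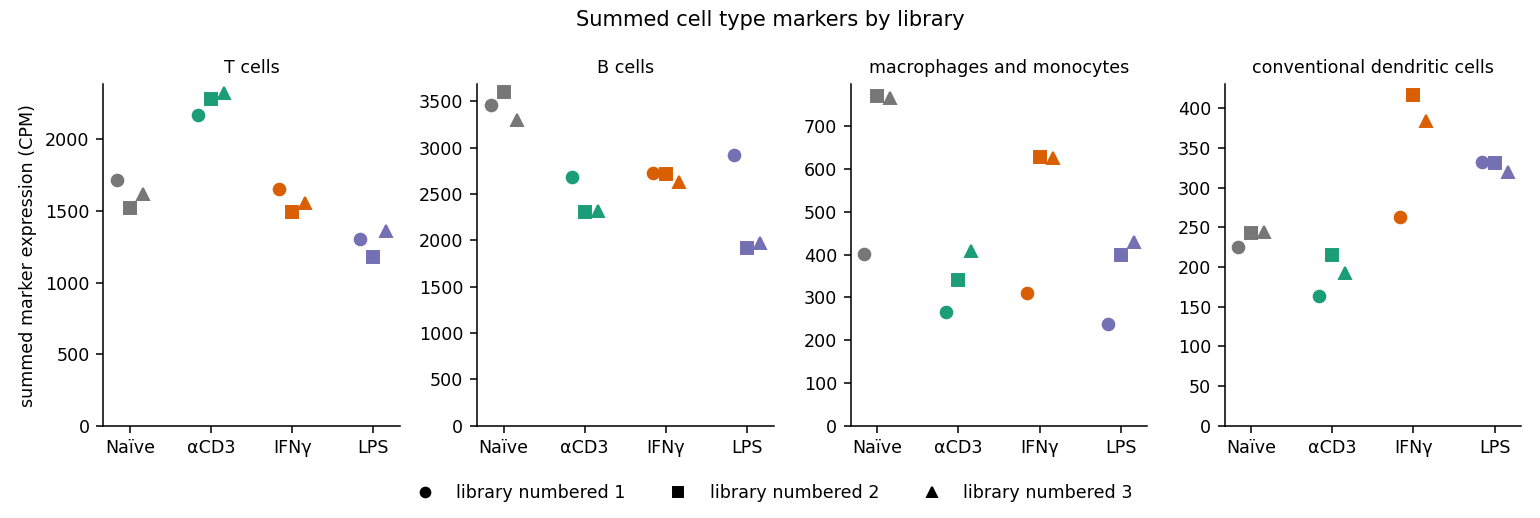
Summed expression (CPM) of the markers of T cells, B cells, macrophages and monocytes, and conventional dendritic cells in each of the 12 libraries, by group on the x axis, with 1 point per library and its shape giving the number in the labels. B cell markers sum to 1919 to 3598 CPM and T cell markers to 1178 to 2326 CPM, and the macrophage sum of the library numbered 1 is the lowest of its group in all 4 groups.

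Markers of other cells were at lower levels, and their sums are given as ranges with no test. The 10 macrophage and monocyte markers summed to 401 to 771 CPM in Naïve, 265 to 408 in αCD3, 311 to 628 in IFNγ and 239 to 430 in LPS. The 8 conventional dendritic cell markers summed to 225 to 244 CPM in Naïve, 164 to 216 in αCD3, 263 to 417 in IFNγ and 320 to 332 in LPS, of which Dpp4, a gene also used by activated T cells, made up 305 CPM of the mean in IFNγ. Cd209a was at 0 in 4 libraries, and the defining dendritic cell genes Xcr1 and Clec9a stayed at or below 3.14 and 4.87 CPM. The 8 plasmacytoid dendritic cell markers, which include the interferon target Bst2, summed to 292 to 424 CPM in Naïve, 281 to 518 in αCD3, 385 to 659 in IFNγ and 578 to 717 in LPS. The remaining lists, 4 CD4 T cell, 6 NK cell and 5 neutrophil markers, summed to at most 147, 315 and 236 CPM. IRF4, IRF5 and IRF8 are all used by B cells or myeloid cells. The part of these cells in the values below was not tested.

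Among the members that responded to IFNγ, 3 have a match to a regulatory motif in the 250 bases before a RefSeq transcript start (GRCm38.p6), and those stretches are shown because they are the ones that hold the motifs searched. Capitals mark matches to the motifs searched on both strands, which were GAS (TTCNNNGAA), the ISRE core (GAAA, any pair of bases, then GAAA), the kappaB consensus and the AP-1 site (TGANTCA).
Irf1, chr11:53769909-53770013, plus strand: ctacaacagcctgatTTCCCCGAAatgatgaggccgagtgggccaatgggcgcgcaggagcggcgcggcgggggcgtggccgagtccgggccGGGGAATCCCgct
Irf2, chr8:46739495-46739544, plus strand: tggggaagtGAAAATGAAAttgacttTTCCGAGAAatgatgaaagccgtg
Irf8, chr8:120736172-120736228, plus strand: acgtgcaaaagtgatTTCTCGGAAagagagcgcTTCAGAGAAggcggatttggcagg
The Irf1 stretch ends at the base before the start and holds a GAS match 90 to 82 bases upstream and a kappaB match 13 to 4 bases upstream. The Irf2 stretch holds an ISRE core 241 to 232 bases upstream and a GAS match 224 to 216 bases upstream, and a kappaB match 17 to 8 bases upstream lies outside the printed stretch. The Irf8 stretch holds a pair of GAS matches, 171 to 163 and 153 to 145 bases upstream. Over all 32851 promoter windows in the reference table, 7.02% held a GAS match, 2.98% an ISRE core, 3.9% a kappaB match and 6.75% an AP-1 site. In the windows of Irf3, Irf4, Irf5, Irf7 and Irf9 none of these letters was found, which says nothing of the factors that bind there. Irf1 and Irf8 each have a further annotated start, and the windows before those starts held no match either.

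To follow the antagonistic pair first, Irf1 (ENSMUSG00000018899, GRCm38 chromosome 11, 53770014 to 53778374) stood at 238.9, 267 and 310.2 CPM in Naïve libraries 1, 2 and 3. It stood at 339, 546 and 447 CPM in αCD3, at 1292, 1102 and 1141 CPM in IFNγ, and at 389, 1039 and 998 CPM in LPS. Every library of the 3 treated groups was above every Naïve library, and LPS 1 lay far below LPS 2 and 3, inside the αCD3 range. Against Naïve, Irf1 was higher by a log2 fold change of 2.11 ± 0.32 (SE) with IFNγ (edgeR quasi-likelihood test, adjusted p = 0.00226) and of 1.57 ± 0.32 with LPS (adjusted p = 0.00227), the latter being 1.90 without LPS 1. The αCD3 difference was 0.70 ± 0.31 and did not pass (adjusted p = 0.0969), with adjusted p from 0.000444 to 0.285 over the 20 alternative analyses, and it passed without LPS 1 (0.00644), in a fit of the 2 groups alone (0.0232) and with DESeq2 (0.0491). IFNγ also exceeded αCD3, by 1.41 (adjusted p = 0.00534), whereas its difference from LPS was 0.54 (adjusted p = 0.188), and 0.21 without LPS 1. The αCD3 and LPS groups differed by -0.87 (adjusted p = 0.0778), a value that passed with DESeq2 (0.0216), and that became -1.20 and passed without LPS 1 (adjusted p = 0.00131).

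Irf2 (ENSMUSG00000031627, chromosome 8, 46739732 to 46847458) was higher with IFNγ than with both other stimuli. It stood at 167, 148 and 141 CPM in Naïve, at 182, 199 and 155 CPM in αCD3, at 310.2, 316 and 321 CPM in IFNγ, and at 127, 130.0 and 122 CPM in LPS. The IFNγ libraries lay above all 9 others and the LPS libraries below all 9 others. IFNγ raised Irf2 by a log2 fold change of 1.05 ± 0.09 against Naïve (adjusted p = 2.74e-04), by 0.82 against αCD3 (adjusted p = 6.58e-05) and by 1.32 against LPS (adjusted p = 2.56e-06), and these calls held in all 20 alternatives. The αCD3 difference from Naïve was 0.23 (adjusted p = 0.0659), which passed with the replicate number as a block (0.0244), without Naïve 1 (0.0339) and without αCD3 3 (0.0164). In LPS, Irf2 fell by 0.27 on the log2 scale (adjusted p = 0.0334), and this call was lost without Naïve 1 (0.129), without Naïve 2 (0.055) and without LPS 1 (0.0595), 2 (0.0611) or 3 (0.103). αCD3 exceeded LPS by 0.50 (adjusted p = 0.00383).

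Within each library the ratio of Irf1 to Irf2, taken per kilobase of exon, combines both members. It was 2.66, 3.37 and 4.09 in Naïve, 3.46, 5.10 and 5.36 in αCD3, 7.74, 6.48 and 6.61 in IFNγ, and 5.69, 14.9 and 15.2 in LPS. The ratio was thus highest in LPS 2 and 3, in which Irf1 was high and Irf2 low, and lay lower in IFNγ, in which both were high. All IFNγ and LPS libraries were above all Naïve and αCD3 libraries.

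Of the members tied to type I interferon signalling, Irf7 (ENSMUSG00000025498, chromosome 7, 141262706 to 141266481, minus strand) had the largest fold changes of the family. It stood at 70.1, 113 and 98.4 CPM in Naïve, at 126, 622 and 494 CPM in αCD3, at 378, 932 and 845 CPM in IFNγ, and at 600.2, 902 and 813 CPM in LPS. All treated libraries were above all Naïve libraries, and the library numbered 1 was the lowest of every group. Irf7 rose by a log2 fold change of 2.94 ± 0.54 with IFNγ (adjusted p = 0.00598), 2.14 ± 0.52 with αCD3 (adjusted p = 0.00897) and 3.04 ± 0.54 with LPS (adjusted p = 0.00109), and all 3 calls held in all 20 alternatives. Without αCD3 1 the αCD3 value was 2.57. IFNγ differed from αCD3 by 0.80, which did not pass (adjusted p = 0.243), and by 0.36 without αCD3 1. IFNγ and LPS differed by -0.10, with a 95% confidence interval of -1.21 to 1.00, so that these libraries could not resolve a difference of that size in either direction. The αCD3 and LPS groups differed by -0.90 (adjusted p = 0.244), and by -1.11 in the fit that blocked on the replicate number, which called it (adjusted p = 0.0366).

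Irf9 (ENSMUSG00000002325, chromosome 14, 55603571 to 55610030) moved in the same direction with a smaller size and less spread. It stood at 142, 174 and 168 CPM in Naïve, at 181, 232 and 233 CPM in αCD3, at 295, 324 and 294 CPM in IFNγ, and at 307, 284 and 289 CPM in LPS. The Naïve libraries lay lowest, the αCD3 libraries between, and the IFNγ and LPS libraries overlapped above them. The log2 fold changes against Naïve were 0.91 ± 0.11 with IFNγ (adjusted p = 5.8e-04), 0.42 ± 0.11 with αCD3 (adjusted p = 0.011) and 0.86 with LPS (adjusted p = 9.05e-05). IFNγ exceeded αCD3 by 0.50 (adjusted p = 0.00387), αCD3 lay below LPS by -0.45 (adjusted p = 0.0145), and IFNγ and LPS differed by 0.05 (95% confidence interval -0.18 to 0.29). Stat2, which encodes a binding partner of IRF9 and was named after its values were seen, averaged 136 ± 23.5 CPM in Naïve and 614 ± 117 CPM in IFNγ (log2 fold change 2.17, adjusted p = 0.00166). Its αCD3 and LPS values are not given here, so this does not show a change particular to IFNγ.

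Irf3 (ENSMUSG00000003184, chromosome 7, 44997648 to 45002848) was the lowest member in every group. It stood at 6.73, 8.91 and 21.1 CPM in Naïve, at 10.6, 12.4 and 10.7 CPM in αCD3, at 8.58, 6.28 and 10.3 CPM in IFNγ, and at 22.2, 8.07 and 10.1 CPM in LPS. The IFNγ libraries were just below all αCD3 libraries, the other pairs of groups overlapped, and the highest values were those of the single libraries Naïve 3 and LPS 1. No difference passed (any difference among the 4 groups, adjusted p = 0.583), and the confidence interval against Naïve reached beyond 1 log2 unit in 1 direction for each stimulus, as the plot of fold changes shows. The annotation gives Irf3 13 transcripts and an overlap of 1065 bases with Bcl2l12 on the opposite strand, and whether the counting used strand is not given in the sources used here.

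**Figure D2:**
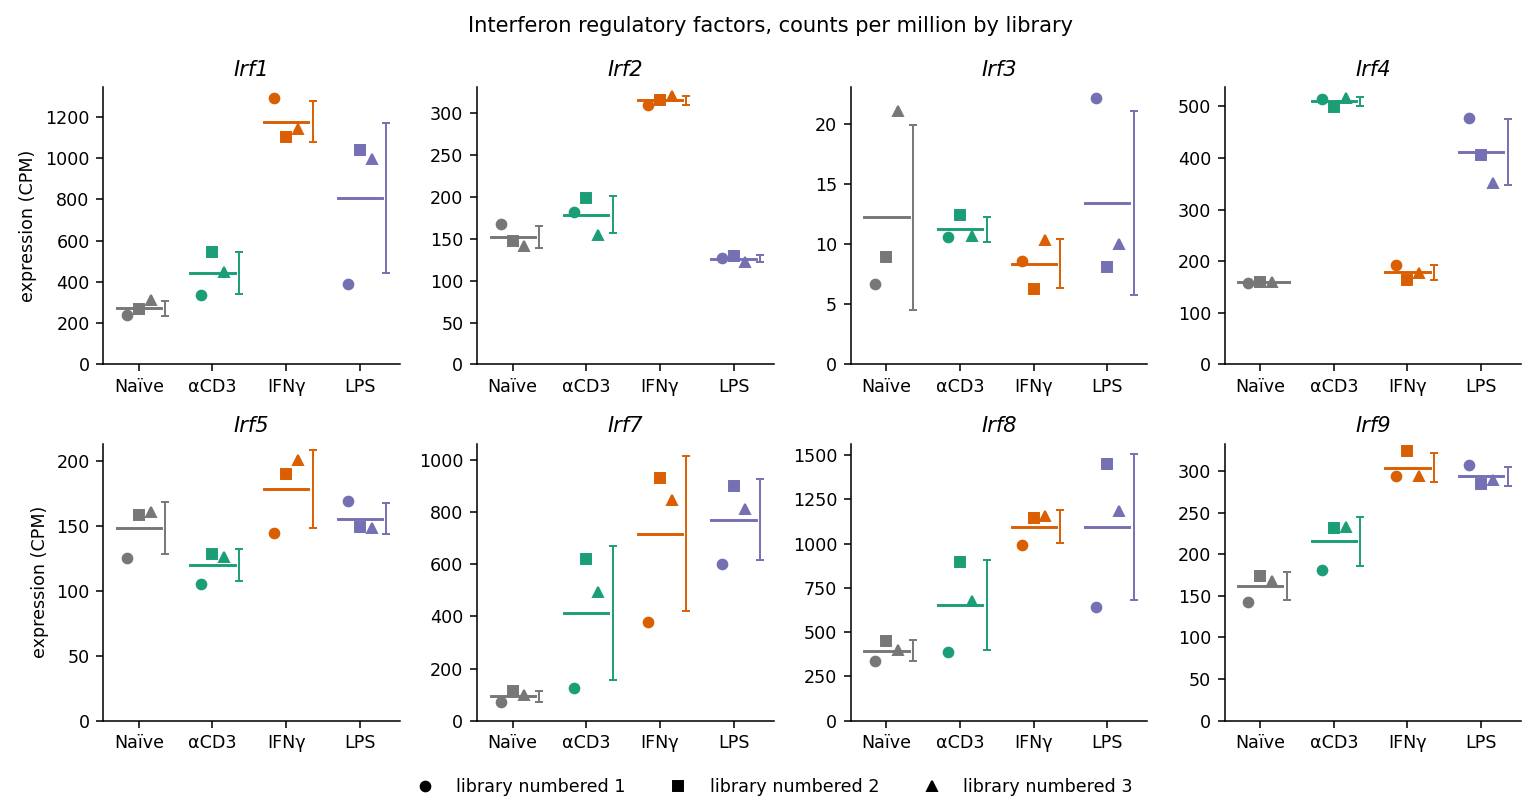
Expression (CPM) of the 8 members in each of the 12 libraries, with 1 panel per gene, groups on the x axis, 1 point per library (shape: number in the labels), a line at the group mean and a bar for ± 1 SD of 3 libraries. Irf2 is set apart in IFNγ (310.2 to 321 CPM), Irf4 in αCD3 and LPS (352 to 516 CPM), and the library numbered 1 is the lowest of each group for Irf7 and Irf8.

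Irf4 (ENSMUSG00000021356, chromosome 13, 30749226 to 30766976) was lower with IFNγ than with both other stimuli. It stood at 158, 159 and 159 CPM in Naïve, at 514, 499.5 and 516 CPM in αCD3, at 193, 164 and 178 CPM in IFNγ, and at 478, 406 and 352 CPM in LPS. The αCD3 and LPS libraries lay above all Naïve and IFNγ libraries, and αCD3 lay above LPS in every library. Irf4 rose by a log2 fold change of 1.68 ± 0.10 with αCD3 (adjusted p = 4.69e-06) and of 1.38 ± 0.10 with LPS (adjusted p = 3.7e-06). With IFNγ its difference from Naïve was 0.17 (adjusted p = 0.336), although the IFNγ libraries did not overlap the Naïve ones. IFNγ lay below αCD3 by -1.52 (adjusted p = 4.42e-06) and below LPS by -1.21 (adjusted p = 6.82e-06). The αCD3 excess over LPS of 0.31 did not pass (adjusted p = 0.0514), while it passed in 9 of the 20 alternatives, among them with the replicate number as a block (0.0124), without LPS 1 (0.00572) and without IFNγ 1 (0.0392). Batf, which encodes the AP-1 factor that binds DNA with IRF4 and was named after its values were seen, averaged 43.6 ± 3.82 CPM in Naïve, 48.9 ± 8.11 CPM in αCD3 and 227 ± 33.1 CPM in LPS, and rose with LPS (log2 fold change 2.38, adjusted p = 1.86e-06), whereas its αCD3 difference was 0.16 (adjusted p = 0.399). The IFNγ value of Batf is not given here.

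Irf8 (ENSMUSG00000041515, chromosome 8, 120736358 to 120756694), the closest relative of Irf4 in the family, had a profile over the 12 libraries closer to that of Irf1 (r = 0.936) than to that of Irf4 (r = 0.160). It stood at 335, 453 and 402 CPM in Naïve, at 391, 899 and 676 CPM in αCD3, at 991, 1144 and 1155 CPM in IFNγ, and at 643, 1453 and 1187 CPM in LPS. The IFNγ and LPS libraries lay above all Naïve libraries, while αCD3 1 fell within the Naïve range. Irf8 rose by a log2 fold change of 1.47 ± 0.32 with IFNγ (adjusted p = 0.0145), a call that was lost without Naïve 1 (0.0546) or Naïve 3 (0.0548), and by 1.46 with LPS (adjusted p = 0.00374). The αCD3 difference of 0.72 did not pass (adjusted p = 0.0954), while 0.66 passed with the replicate number as a block (0.0245), 0.99 without αCD3 1 (0.0194), and 0.72 both without LPS 1 (0.0475) and with DESeq2 (0.0474). IFNγ differed from LPS by 0.00 (95% confidence interval -0.70 to 0.70). IFNγ exceeded αCD3 by 0.74 (adjusted p = 0.0913), which was 0.83 and passed with the block (0.00974), and passed with DESeq2 (0.0386), without αCD3 2 (0.0407) and without LPS 1 (0.0447). The αCD3 and LPS groups differed by -0.74 (adjusted p = 0.131), and the block fit called this difference (0.0227), as did the fit without LPS 1 (0.0318).

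The ratio of Irf8 to Irf4 per kilobase was 1.47, 1.98 and 1.76 in Naïve, 0.528, 1.25 and 0.910 in αCD3, 3.56, 4.85 and 4.52 in IFNγ, and 0.935, 2.49 and 2.34 in LPS. It was highest in the 3 IFNγ libraries, and the IFNγ libraries lay above and the αCD3 libraries below all Naïve libraries. LPS libraries fell on both sides of Naïve, LPS 1 below and LPS 2 and 3 above. These ratios use merged exon lengths of 7055 bases for Irf8 and 4903 bases for Irf4, and with the longest transcripts (3469 and 4764 bases) every ratio is higher by the same factor, the Naïve group levels being 114 and 33.3 CPM per kb in place of 56.2 and 32.4.

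**Figure D3:**
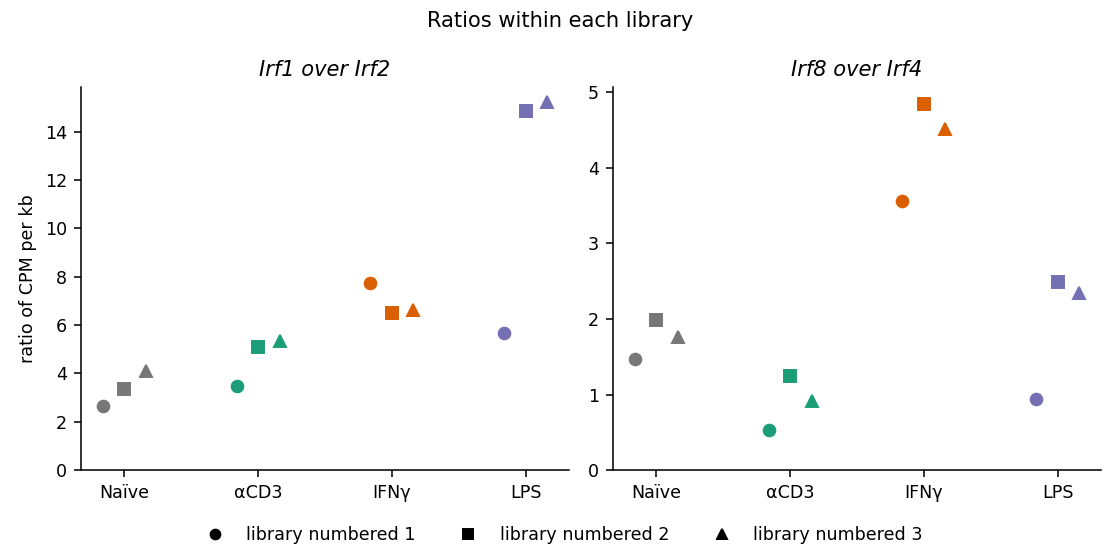
Ratio of Irf1 to Irf2 and of Irf8 to Irf4 in each library, each gene as CPM per kb of merged exons, with groups on the x axis and 1 point per library. The Irf1 to Irf2 ratio reaches 14.9 and 15.2 in LPS 2 and 3, and the Irf8 to Irf4 ratio is highest in IFNγ at 3.56 to 4.85.

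Irf5 (ENSMUSG00000029771, chromosome 6, 29526625 to 29541871) changed least of the members with a called difference. It stood at 125, 159 and 161 CPM in Naïve, at 105, 128 and 126 CPM in αCD3, at 145, 190.4 and 201 CPM in IFNγ, and at 169, 149 and 148 CPM in LPS. The IFNγ and the LPS libraries were above all αCD3 libraries, and the other pairs of groups overlapped. IFNγ exceeded αCD3 by a log2 fold change of 0.58 ± 0.14 (adjusted p = 0.00757), while neither the IFNγ difference from Naïve of 0.27 (adjusted p = 0.261) nor the αCD3 difference of -0.31 (adjusted p = 0.102) passed. The αCD3 difference passed with the replicate number as a block (0.0485), without Naïve 1 (0.0434) and without IFNγ 1 (0.0469). Against LPS, αCD3 differed by -0.38 (adjusted p = 0.0824), and this passed with the block (0.0277) and without IFNγ 1 (0.044). Irf5 shares 1045 bases with Tnpo3 on the opposite strand, and only 87.7% of its 31-base words are found in no other gene, so its counts are uncertain.

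Seen by comparison, 5 of the 8 members were higher with IFNγ than in Naïve (Irf1, Irf2, Irf7, Irf8 and Irf9), where 12.4% of all tested genes were called, 8.17% higher and 4.27% lower. With LPS, 5 members were higher (Irf1, Irf4, Irf7, Irf8 and Irf9) and Irf2 lower, where 49.3% of tested genes were called, 26.9% higher and 22.3% lower. With αCD3, 3 members were higher (Irf4, Irf7 and Irf9), where 38.6% of tested genes were called, 22.9% higher and 15.7% lower, so that the share of members called was near that of all genes. Groups did not overlap for 6 members with IFNγ, 4 with αCD3 and 6 with LPS, against 31.5%, 52.4% and 58% of tested genes. The αCD3 count rested on the analysis chosen. With the replicate number as a block 5 members were higher and Irf5 lower, with DESeq2 5 were higher, without LPS 1 5 were higher, without Naïve 1 4 were higher and 1 lower, and without all 4 libraries numbered 1 6 were higher and 1 lower. The count over all genes moved too, from 4681 of 12122 in the main fit to 6349 of 12122 with the block. It was 4926 of 20778 with DESeq2, 4958 of 12342 without LPS 1, 3819 of 12312 without Naïve 1 and 5947 of 12193 without the 4 libraries numbered 1. The median log2 fold change of the members was 0.98 with IFNγ, 0.56 with αCD3 and 1.12 with LPS, against -0.02, -0.02 and -0.01 over all tested genes. These 3 comparisons share the Naïve libraries.

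**Figure D4:**
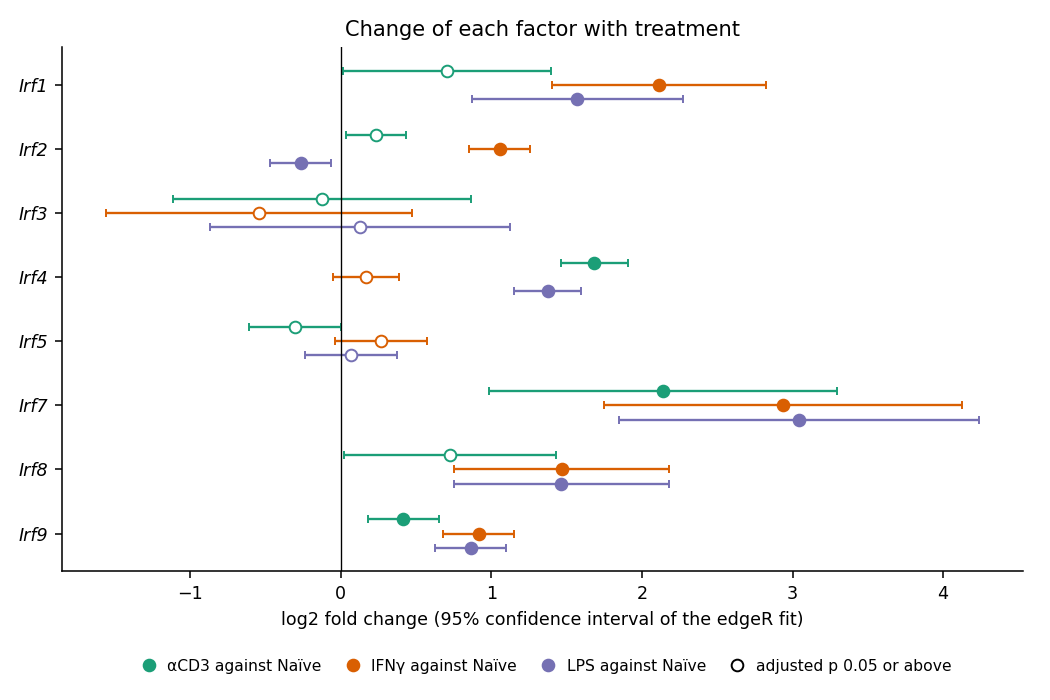
Log2 fold change of each member against Naïve with αCD3, IFNγ and LPS on the x axis, members on the y axis, with bars for the 95% confidence interval of the edgeR fit of 12 libraries and open circles for an adjusted p of 0.05 or above. Irf7 has the largest changes (2.14 to 3.04), Irf2 rises with IFNγ (1.05) and falls with LPS (-0.27), and Irf4 rises with αCD3 and LPS (1.68 and 1.38).

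Between the stimuli, 4 members were higher with IFNγ than with αCD3 (Irf1, Irf2, Irf5 and Irf9) and Irf4 was lower, where 37.2% of tested genes were called, 15.8% higher and 21.4% lower. IFNγ and LPS differed for only a pair of members, Irf2 (higher with IFNγ) and Irf4 (lower), where 40.4% of tested genes were called, 18% higher and 22.4% lower. αCD3 and LPS differed for Irf2 (higher with αCD3) and Irf9 (lower), where 19.4% were called, 9.64% higher and 9.76% lower. Groups did not overlap for 7, 3 and 4 members in these comparisons, against 48.4%, 49.8% and 34.8% of tested genes. The called count for αCD3 against LPS, 1 higher and 1 lower, became 2 higher and 4 lower with the replicate number as a block, 2 higher and 2 lower with DESeq2, 2 higher and 3 lower without LPS 1, and 2 higher and 5 lower without the 4 libraries numbered 1. Without IFNγ 1, 4 members were called. The count over all genes moved too, from 2351 of 12122 in the main fit to 4202 of 12122 with the block. It was 2632 of 20778 with DESeq2, 2590 of 12342 without LPS 1, 3582 of 12193 without the 4 libraries numbered 1 and 2401 of 12320 without IFNγ 1. Over all 4 groups, 7 of the 8 members differed somewhere, all but Irf3, as did 59.9% of tested genes.

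Part of the spread within groups followed the number in the labels. The library numbered 1 was the lowest of its group in all 4 groups for Irf7 and Irf8, a pattern shown by 15.5% of all tested genes, and in 3 of 4 groups for Irf1 and Irf5. The summed markers of macrophages and monocytes, CD4 T cells, NK cells and neutrophils were also each lowest in the library numbered 1 of every group. In LPS 1 the B cell marker sum was 2923 CPM against 1919 and 1975 CPM in LPS 2 and 3. Ifng, the gene for IFNγ itself, stood at 8.69 CPM in LPS 1 against 300.2 and 260.4 CPM in LPS 2 and 3, and at 4.34 CPM in αCD3 1 against 40.6 and 31.2 CPM in αCD3 2 and 3. The part of these differences in the members' values was not tested. Without the 4 libraries numbered 1, an alternative chosen after seeing the data, the log2 fold changes of Irf7 were 3.05 with IFNγ, 2.41 with αCD3 and 3.02 with LPS, and those of Irf8 were 1.41, 0.89 and 1.63, all of them called. In the same fit Irf2 no longer fell with LPS (-0.19, adjusted p = 0.155), while Irf5 was higher with IFNγ than in Naïve (0.27, adjusted p = 0.0044) and than with LPS (0.38, adjusted p = 2.92e-04), and Irf7 was higher with IFNγ than with αCD3 (0.65, adjusted p = 0.00384), the 1 alternative of 20 in which this difference passed.

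To compare levels between genes, CPM were divided by the merged exon length in kilobases. In Naïve the order was Irf1 (68.5 ± 9.03 CPM per kb, SD, n = 3), Irf8 (56.2 ± 8.37), Irf5 (51.0 ± 6.92), Irf4 (32.4 ± 0.071), Irf9 (30.0 ± 3.12), Irf7 (24.9 ± 5.81), Irf2 (20.6 ± 1.83) and Irf3 (3.55 ± 2.24). The ranges of mean ± SD of neighbours in this order overlapped, apart from those of Irf5 and Irf4 and of Irf2 and Irf3. With αCD3, Irf1 (112 ± 26.0), Irf7 (109.7 ± 68.2), Irf4 (104 ± 1.86) and Irf8 (92.9 ± 36.1) led with overlapping SDs, then came Irf5 (41.3 ± 4.33) and Irf9 (40.0 ± 5.52), which overlapped as well, Irf2 (24.2 ± 3.01) and Irf3 (3.26 ± 0.296).

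With IFNγ the order was Irf1 (296 ± 25.2 CPM per kb), Irf7 (190.2 ± 78.9), Irf8 (155 ± 13.01), Irf5 (61.5 ± 10.3), Irf9 (56.5 ± 3.18), Irf2 (42.7 ± 0.720), Irf4 (36.4 ± 2.99) and Irf3 (2.44 ± 0.589), with Irf2 above Irf4. With the longest transcript as the length, Irf2 also stood above Irf4 in Naïve (38.3 and 33.3 CPM per kb). The SDs of Irf7 and Irf8 overlapped, as did those of Irf5 and Irf9. With LPS, Irf7 (204 ± 41.1), Irf1 (203 ± 91.5) and Irf8 (155 ± 58.6) led, followed by Irf4 (84.0 ± 12.9), Irf9 (54.5 ± 2.23), Irf5 (53.6 ± 4.12), Irf2 (17.1 ± 0.549) and Irf3 (3.90 ± 2.22), where the SDs of each pair of neighbours from Irf7 to Irf4 overlapped, as did those of Irf9 and Irf5. Over all 12 libraries the highest member, Irf1, was 51.6 times the lowest, Irf3. With the longest transcript as the length, Irf8 moved above Irf7 and Irf5 above Irf4 over all libraries.

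**Figure D5:**
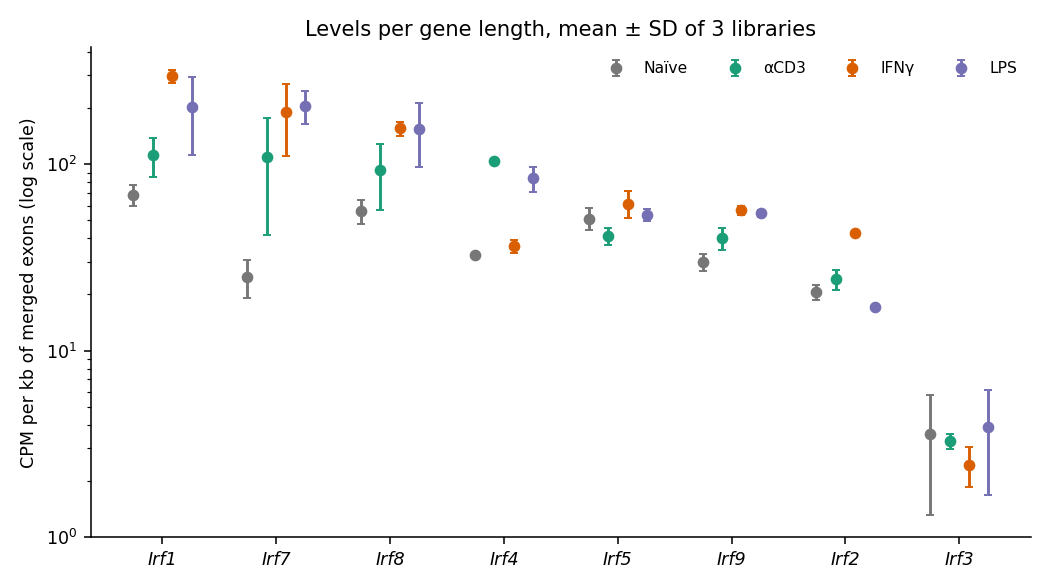
Level of each member per gene length (CPM per kb of merged exons, log scale) by group, as mean ± SD of 3 libraries, with members ordered by their mean over all 12 libraries. Irf1 leads at 296 CPM per kb in IFNγ and Irf3 stays between 2.44 and 3.90 CPM per kb.

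Some members overlap other genes in the annotation. Irf8 lies wholly within Gm20388, a gene model on the same strand, over 20337 bases, and Irf9 shares 123 bases with Rnf31 on the same strand. Irf1 shares 907 bases with Gm17334 and Irf7 45 bases with Phrf1, both on the opposite strand. Of the 31-base words of each member, at least 95.2% were found in no other gene, apart from Irf5. For Irf8 this share was 100%, so its overlap with Gm20388 shared no such words.

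Of 18 antiviral target genes, 17 were tested and all 17 were higher with IFNγ, with αCD3 and with LPS than in Naïve, with median log2 fold changes of 3.82, 2.73 and 3.59, where 12.4%, 38.6% and 49.3% of all tested genes were called in either direction. Ifit3, which encodes an RNA-binding antiviral protein, was the most abundant of them and rose from 34.5 ± 6.02 CPM in Naïve to 940.1 ± 409 CPM with IFNγ, 332 ± 228 CPM with αCD3 and 745 ± 65.9 CPM with LPS (log2 fold changes 4.77, 3.26 and 4.43). It also had the largest change with LPS, while the largest with IFNγ was that of Ifi44 (4.80, adjusted p = 0.00688, or 0.0751 with limma-voom) and the largest with αCD3 that of Mx1, an antiviral GTPase (3.76, adjusted p = 0.00412). Leaving out 1 library at a time, 16 or 17 of the 17 were called with IFNγ and 15 to 17 with αCD3.

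Of the 18 genes of antigen presentation and the IFNγ response, all tested, 16 were higher with IFNγ, 9 were higher and 1 lower with αCD3, and 15 were higher and 1 lower with LPS, with medians of 1.72, 0.74 and 1.41, where 12.4%, 38.6% and 49.3% of all tested genes were called. Gbp2, a guanylate-binding protein, rose from 239 ± 28.9 to 4064 ± 177 CPM with IFNγ (log2 fold change 4.09 ± 0.40, adjusted p = 3.22e-04). B2m, the light chain of MHC class I and the most abundant gene of the list, rose by 0.79 with IFNγ (adjusted p = 0.00593) and by 0.55 with LPS (adjusted p = 0.00953), and its αCD3 difference of 0.25 did not pass (adjusted p = 0.192) except with the replicate number as a block (0.00179) and without the 4 libraries numbered 1 (0.002). The largest changes with αCD3 and LPS were those of Il12rb1, a chain of the IL-12 receptor (2.07, adjusted p = 0.00422), and of Gbp4 (3.27, adjusted p = 0.0177, or 0.0512 without Naïve 1). The αCD3 count of 10 fell to 4 without αCD3 2 and was 14 without αCD3 1, and it was 15 with the replicate number as a block.

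Factors that bind DNA with IRFs did not move in one direction. Of 16, 3 were higher and 1 lower with IFNγ, 4 higher and 3 lower with αCD3, and 5 higher and 5 lower with LPS, against 12.4%, 38.6% and 49.3% of all tested genes called, so that the αCD3 share was near that of all genes. Batf2 had the largest change each time, from 0.198 ± 0.172 CPM in Naïve to 17.2 ± 1.96 CPM with IFNγ, 1.54 ± 0.95 CPM with αCD3 and 3.82 ± 2.43 CPM with LPS. Ets1, the most abundant, fell by 0.69 on the log2 scale with LPS (adjusted p = 3.29e-05), and its differences were 0.01 with IFNγ (adjusted p = 0.961) and -0.04 with αCD3 (adjusted p = 0.689). The αCD3 count of 7 was 4 without any 1 of the Naïve libraries and 3 without αCD3 2 or αCD3 3. The αCD3 call of Batf2 (adjusted p = 0.0319) was lost with limma-voom (0.112), without any 1 of the 3 Naïve libraries (0.0645 to 0.0796), without αCD3 2 (0.11) and without αCD3 3 (0.0898).

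Of 18 sensors, adaptors and kinases upstream of IRFs, 6 were higher and 1 lower with IFNγ, 3 higher and 2 lower with αCD3, and 7 higher and 1 lower with LPS, where 12.4%, 38.6% and 49.3% of all tested genes were called. The leading changes were those of Ifih1, the RNA sensor MDA5, which rose from 23.5 ± 5.79 CPM in Naïve to 168 ± 88.1 CPM with IFNγ, 84.6 ± 51.2 CPM with αCD3 and 195 ± 29.9 CPM with LPS. Its αCD3 call (adjusted p = 0.0241) was lost with limma-voom (0.069) and with no count filter (0.0511). It was also lost without any 1 of the 3 Naïve libraries (0.0519 to 0.0827), without αCD3 2 (0.0992) and without αCD3 3 (0.0675). Ddx58, the RNA sensor RIG-I, rose by 1.82 with IFNγ (adjusted p = 0.00812) and by 1.75 with LPS (adjusted p = 0.00238), and its αCD3 difference of 0.93 did not pass (adjusted p = 0.0578). This difference passed with the block (0.0357), with DESeq2 (0.0162), without αCD3 1 (0.00269), without IFNγ 1 (0.0389) and without the 4 libraries numbered 1 (3.3e-06). The αCD3 count of 5 was 8 with the block, and 3 without Naïve 2, αCD3 2 or αCD3 3 and 2 without Naïve 3. With IFNγ the block gave 6 higher and 4 lower, in a fit that called 3020 of all tested genes against 1508 in the main fit. Without IFNγ 2 the IFNγ count of 7 was 4. Of 9 proteins that bind IRFs, 2 were higher with IFNγ, 3 higher and 2 lower with αCD3, and 4 higher and 3 lower with LPS, where 12.4%, 38.6% and 49.3% of all tested genes were called. The IFNγ count of 2 was 1 without any 1 of the Naïve libraries or IFNγ 2, and the αCD3 count of 5 was 3 without Naïve 1, αCD3 2 or αCD3 3. Trim21, a ubiquitin ligase that acts on IRFs, rose by 1.91, 0.72 and 1.52 with IFNγ, αCD3 and LPS (adjusted p = 8.48e-04, 0.0308 and 4.18e-04), the αCD3 call being lost without any 1 of the 3 Naïve libraries (0.058 to 0.0905), without αCD3 2 (0.126) and without αCD3 3 (0.0928). Swap70, which binds IRF4, was the most abundant of them and rose with LPS, from 427 ± 29.3 to 1087 ± 105 CPM (log2 fold change 1.35, adjusted p = 2.54e-06), with differences of -0.12 with IFNγ (adjusted p = 0.441) and -0.15 with αCD3 (adjusted p = 0.2).

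The interferon genes themselves were mostly undetected. Of 7 in the list only Ifng passed the filter. It rose with LPS (log2 fold change 6.19, adjusted p = 0.00234, or 0.0984 with limma-voom), and its difference with IFNγ was 0.47 (adjusted p = 0.879). With αCD3 the difference was 3.25 (adjusted p = 0.055). It passed with the block (0.0108), with DESeq2 (0.00743), in a fit of the 2 groups alone (0.0264), without αCD3 1 (0.0242) and without LPS 1 (0.00864). Without the 4 libraries numbered 1 it passed as well (1.87e-05). Ifnb1, a main target of IRF3 and IRF7, had at most 3 estimated counts in any library, so a change of this gene was not detectable at this depth.

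The genes whose profile over the 12 libraries was most like that of each member were named by Pearson's r on log2 CPM, as a description with no test, since the libraries share their groups and, in part, their numbers. Irf1 was followed by Gbp2, Psmb9 and Igtp (r = 0.98 each, as rounded), Irf2 by Tspan2, Ablim1 and St3gal6 (0.97, 0.97 and 0.96), and Irf4 by Amd1, Nat10 and Trmt1 (0.99 each). Irf5 was followed by Ccdc18, Blnk and Basp1 (0.97, 0.96 and 0.90). Irf7 was followed by Usp18, Dhx58 and Oas2 (0.998, 0.998 and 0.997), the closest matches of the family. Irf8 was followed by Trex1, Il27 and Nos2 (0.98, 0.98 and 0.97), Irf9 by Trim12c, Ifit3b and Mitd1 (0.97 each), and Irf3 by Proz, Rad17 and Dscc1 (0.81, 0.79 and 0.78), the weakest. Between members, r was highest for Irf7 with Irf9, Irf1 with Irf8, and Irf7 with Irf8 (0.936, 0.936 and 0.933 over the 12 libraries), and lowest for Irf4 with Irf5 (-0.522).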

How the data were processed

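The deposited values are estimated counts per gene symbol, which the authors obtained with kallisto (version not given in the sources used here) on mm10, 1 column per library, unscaled and not pooled. They were rounded to whole numbers. Genes that passed filterByExpr were tested with the edgeR 4.0.16 quasi-likelihood test (robust, TMM factors, R 4.3.3) in 1 fit of 12 libraries with group as the only term. P-values were Benjamini-Hochberg adjusted over all 12122 tested genes, and an adjusted p under 0.05 is a call. The method was also run on simulated counts, with changes planted in LPS only. These were drawn independently for each library, so the run does not cover the shared deviation of same-numbered libraries. Levels are CPM on TMM-scaled library sizes, and log2 CPM used a prior count of 2. Gene positions and lengths are from GENCODE M21 (GRCm38), and promoters from RefSeq.

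Replicate numbers are shared by the groups. All 18 same-numbered pairs of libraries deviated together from their group means (r from 0.1175 to 0.4006, each over 0.1). The numbers were therefore taken to pair the libraries, from the data and not from the labels. The fit with the number as a block is given where it changes a call of a member or of another named gene. Counts of the gene lists with the block are given for some lists only.

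All 8 members were named. The genes most like each member are the 3 with the highest r, and of each target or pathway list the called gene with the largest change and the most abundant gene were named. The members and lists were chosen with earlier results of these data known. Alternatives were other scalings, no filter, DESeq2 1.42.0, limma-voom 3.58.1, the block, 2 groups alone, and leaving out each library. The submitters' processing notes name DESeq2 1.24.0.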

Additional observations from a re-analysis of the deposited data

How the results depend on the processing

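None of the members' called differences changed direction in any alternative run. The count of members called for αCD3 against Naïve was 3, and 5 with DESeq2, 6 with the replicate block, 3 to 5 when 1 library was left out, and 7 without the 4 libraries numbered 1, a setting chosen after seeing the data. For αCD3 against LPS it was 2, and 4, 6, 2 to 5 and 7 in the same settings. Over all genes, in the same order, 4681 were called for αCD3 against Naïve, and 4926, 6349, 3130 to 4958 and 5947. For αCD3 against LPS these counts were 2351, and 2632, 4202, 1429 to 2590 and 3582. The member counts for the other 4 comparisons and for any difference stayed within 1.5 times. The replicate block changed no call of a member other than those given above. The cause of these shifts was not tested.

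Library size alone as the scaling moved the median of all tested genes to -0.16 (IFNγ), -0.13 (αCD3) and -0.22 (LPS) on the log2 scale against Naïve, and the higher share of the called genes from 65.6% to 31.4%, from 59.3% to 44% and from 54.7% to 32.8%. Under it the members' calls were the same in number, but for Irf5, lower with αCD3 (adjusted p = 0.0257), and Irf4, higher with αCD3 than with LPS (0.0281). Over all genes, 1508 were called for IFNγ against Naïve, and 2279 with library size alone, 3020 with the block and as few as 787 with 1 library left out. For αCD3 against LPS 2351 were called, and 4202 with the block, 1440 in a fit of the 2 groups alone and as few as 1429 with 1 library left out. Of the 3 genes most like each member by Pearson's r, at most 1 was among the 3 by Spearman's rho for Irf1, Irf2, Irf3, Irf4, Irf7 and Irf9.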
